A study of Prunus persica with 8 samples.

Results

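The step described here is mid chilling in peach flower buds, from 200 to 475 chilling units (CU), a measure of the cool hours that a bud collects over winter. Expression at 475CU was set against expression at 200CU, on the log2 scale of FPKM plus 1. FPKM is the number of fragments scaled to the length of a feature and to the size of a library. Of 22285 features in the table, 17974 had at least 1 FPKM in at least 2 of the 4 stages and were compared. Of these, 169 differed by at least 1 between 475CU and 200CU, which is a doubling or halving of FPKM plus 1, and these are the features described below. Each was then sorted by whether its difference continued or reversed the difference between 200CU and 0CU.

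Flower buds of temperate fruit trees stop growing in autumn and stay in endodormancy, a state in which the bud does not open even in warm conditions. Long exposure to cool temperatures gradually lifts this state and is followed by ecodormancy, in which only cold weather holds the bud back. Chromatin regulators such as DNA methyltransferases, histone deacetylases and histone methyltransferases are known in plants as regulators of developmental transitions, including those that depend on cold.

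All buds came from 10-year-old trees of the nectarine cultivar Fantasia, taken outdoors with no treatment other than the season, and their scales were removed. Buds at 475CU were collected on day 10 of month 12 of 2018 and buds at 200CU on day 23 of month 11 of 2018, 17 days and 275 CU earlier. The stages on either side were 0CU, on day 5 of month 11 of 2018, and 770CU, on day 7 of month 1 of 2019. The labels list 2 RNA libraries at each stage, and the study's methods, whose text leaves out 200CU, give groups of 3 or 4 trees for a bud sample. Those methods give 3 biological replicates at 475CU, while the labels list 2 RNA libraries and the deposited 475CU values resolved into 2. Every stage was collected on a single day, so the stage and the day cannot be told apart. A whole bud holds several organ primordia, and a change in the share of a cell type cannot be told apart from a change of RNA per cell. The identifiers could not be paired with gene names, so flower bud markers were not checked.

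The table holds 1 value per stage, the authors' mean of the stage's 2 libraries. For 21962 features (98.6%) the 4 values could be resolved into whole fragment numbers of the 2 libraries of each stage, and these recovered libraries give the error of a stage. The larger library of a stage is called library a and the smaller library b, and which of them is which labelled replicate is not known. The effective sizes of the libraries were 21918085 and 20038616 fragments at 475CU and 25374451 and 22114037 at 200CU. Among features that had 50 or more fragments in both libraries, the log2 ratio of the 2 libraries had an SD of 0.21 at 475CU and 0.28 at 200CU. Features above 100 FPKM were recovered less often, at 62.2%.

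Mid chilling had the fewest features that differed among the 3 steps between stages. At 475CU, 106 features were higher and 63 lower than at 200CU by at least 1, or 0.59% and 0.351% of those compared, and 0.94% together. The step before it, 200CU against 0CU, had 593 such features (3.3%), and the step after it, 770CU against 475CU, had 483 (2.69%). The median difference over all compared features was 0.00 with an SD of 0.29, and 5% of features lay below -0.43 and 5% above 0.46. The features closest to the limit were at 1.0002 and 0.99799 among rises and at -1.0003 and -0.99296 among falls, so the limit cut through a continuous range. Rescaling both stages to the same total of FPKM lowered the median difference by 0.13 and turned the split to 95 higher and 128 lower. Scaling by median ratio factors left it at 106 higher and 62 lower, and quantile normalization at 103 higher and 63 lower. The summed FPKM was 709837 at 475CU and 641480 at 200CU, and features with ENSRNA identifiers made up 35% of it at 475CU and 30.5% at 200CU. A single one of them, ENSRNA050004049, accounted for 20.9% at 475CU and 17% at 200CU. With library a of 200CU left out, 298 features differed by at least 1, of which 166 were higher and 132 lower. With library a of 475CU left out there were 240 features, 122 higher and 118 lower.

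**Figure D1:**
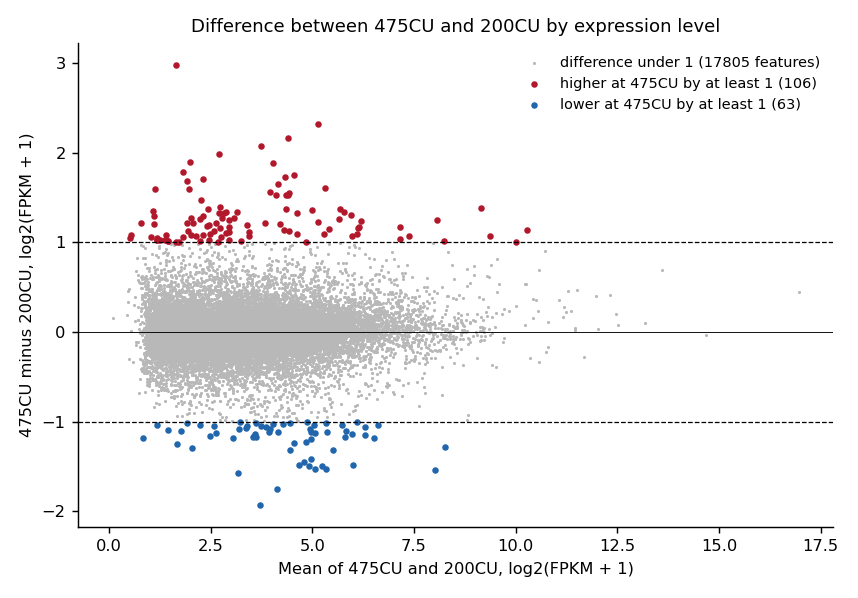
Each point is 1 of 17974 features, with the mean of log2(FPKM + 1) at 475CU and 200CU on the x axis and the difference, 475CU minus 200CU, on the y axis. The dashed lines mark a difference of 1 in size, with 106 features above (red) and 63 below (blue), and the highest point is a feature whose rise rested on a single library.

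The members were found at low and high levels alike. Their median over the 4 stages was 7.87 FPKM for the 106 that were higher at 475CU and 18.8 FPKM for the 63 that were lower, beside 9.79 FPKM for all compared features. Both sets were made of shorter features, with a median recovered length of 830 bases among the higher and 1482 bases among the lower, beside 2267 bases for all. At fewer than 50 fragments in all 4 libraries of the 2 stages, 19 members rested on little sequence, 16 of them higher and 3 lower. Among all 17655 recovered features compared, 887 were that low. The smallest fragment number of the 4 libraries had a median of 76 among the higher members. That median was 310 among the lower members and 410 among all.

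The test of single libraries used limma with Benjamini-Hochberg adjustment over 17655 recovered features, all 4 stages in 1 fit. For 475CU against 200CU the fit made 570 calls (3.23%), with 346 features higher at 475CU (1.96%) and 224 lower (1.27%). For 200CU against 0CU it made 4364 calls (24.7%), and for 770CU against 475CU 1938 (11%). In mid chilling the median size of the called differences was 0.67, so most calls lay below the limit of 1. Among the 166 recovered members 104 were called, 64 higher and 40 lower, a share set by the way the members were chosen. The number of calls rested on single libraries. Without library b of 475CU only 1 feature was called, without library b of 200CU 85, without library a of 475CU 100 and without library a of 200CU 265. Leaving out library a of 770CU gave 288 calls and library b of 770CU 287, while the lone library of a stage was assumed to vary like the others. Fitting the 200CU and 475CU libraries alone gave 148 calls, and rescaling to the same total gave 1232, of which 230 were higher and 1002 lower. Scaling by median ratio factors gave 562 calls, with 338 higher and 224 lower.

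The members were picked on the mean of these same libraries, so their counts of separate libraries and of limma calls, here and for each group below, follow in part from that choice and describe it. For 164 of the 166 recovered members the 475CU libraries did not overlap with the 200CU libraries, which was also true of 53.6% of all 17655 features. All 4 differences that can be formed between a 475CU and a 200CU library were at least 1 and of the same sign for 50 members, 35 higher and 15 lower at 475CU, and for 50 of all 17655 features (0.283%). They were at least 0.5 for 151 members and for 471 of all features. In 8 of the 166 members the 475CU libraries differed from each other by at least 1, beside 59 of all 17655 features. The 200CU libraries did so in 9 of the 166 members, beside 130 of all features.

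The largest rise in the stage values was carried by 1 library. This feature, of the XLOC class, had 15.5 and 0.295 FPKM at 475CU, against 0.117 and 0.134 FPKM at 200CU. Library a of 475CU held 115 fragments of it and library b 2. The difference of the stage values was 2.99, and limma gave an adjusted p of 0.384. The largest fall, in a PRUPE feature, had 8.4 and 3.13 FPKM at 475CU, against 14.5 and 35 FPKM at 200CU. Its groups did not overlap, but the libraries of each stage lay over 2-fold apart, and for a difference of -1.93 the adjusted limma p was 0.0877.

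A difference was said to continue an earlier one where the feature had already differed by at least 0.5 between 200CU and 0CU in the same direction, to reverse it where that difference was opposite, and to be new where it was smaller than 0.5. Of the 169 members 38 continued, 62 reversed and 69 were new. Over all compared features the 200CU minus 0CU difference had a median size of 0.22, so one under 0.5 was the more common case. Among the 106 that were higher at 475CU, 32 continued, 32 reversed and 42 were new. Among the 63 that were lower, 6 continued, 30 reversed and 27 were new. Both differences contain the 200CU value, and an error in that value pushes them in opposite directions, so the count of reversals is a description. With library a of 200CU for the later difference and library b for the earlier, 47 features continued, 63 reversed and 66 were new. The other way round, 90 continued, 73 reversed and 135 were new. Leaving out library a of 200CU altogether gave 41 continued, 152 reversed and 105 new, and leaving out library a of 475CU gave 46, 84 and 110. Rescaling to the same total gave 39 continued, 114 reversed and 70 new, and scaling by median ratio factors gave 38, 61 and 69.

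**Figure D2:**
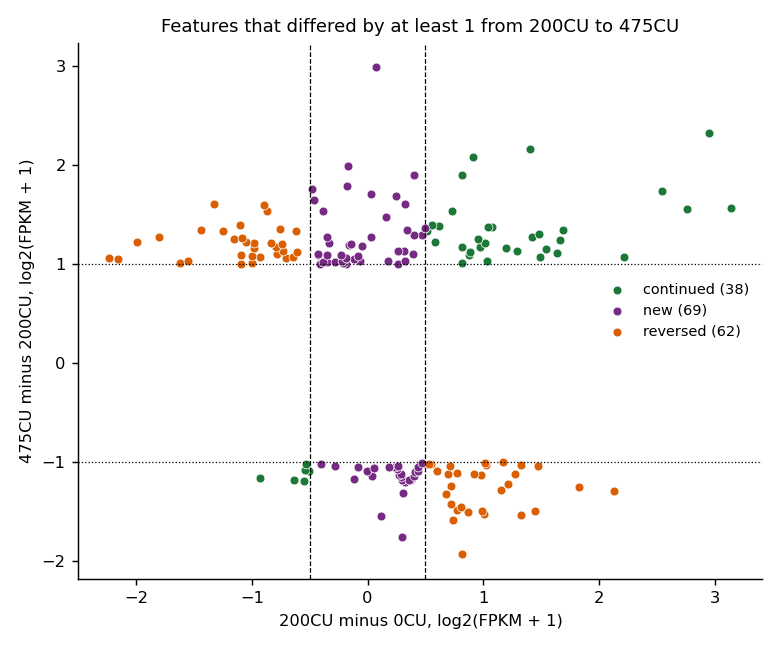
Each point is 1 of the 169 features, with the difference of log2(FPKM + 1) for 200CU minus 0CU on the x axis and for 475CU minus 200CU on the y axis. Dashed lines mark an earlier difference of 0.5 in size and dotted lines a later one of 1, and colours give the 38 continued (green), 69 new (purple) and 62 reversed (orange) features.

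The 32 features that were already higher at 200CU and higher again at 475CU climbed by definition over both steps. Their median FPKM was 2.29 at 0CU, then 9.54 at 200CU, 27.7 at 475CU and 19.4 at 770CU. They were lowest at 0CU in 30 cases and highest at 475CU in 18 cases, with 770CU the highest stage in the other 14. Between 475CU and 0CU the log2 difference was 1.81 at the least and 5.28 at the most. In the fit on libraries 30 of the 31 recovered ones were called at 475CU against 200CU.

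The largest of these rises with a call was PRUPE_3G021100. Its libraries held 72.6 and 82.4 FPKM at 475CU, against 9.50 and 19.8 FPKM at 200CU. At 0CU they held 1.05 and 0.996 FPKM, and at 770CU 28.8 and 23.0 FPKM. The 475CU libraries stood above those of the other 3 stages, while the 200CU libraries differed about 2-fold between themselves. The stage value at 475CU was 5.28 times that at 200CU, and limma gave a log2 difference of 2.41 (standard error 0.28, adjusted p 0.012). Without library b of 475CU the adjusted p was 0.0937. What the feature encodes is not annotated in the sources used here.

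The 42 features that were higher at 475CU with no earlier difference were mostly of low level. Their median FPKM was 2.37 at 0CU, then 2.12 at 200CU, 6.93 at 475CU and 6.25 at 770CU, so the median was still raised at the last stage. Single features did not all keep that level. Their median difference, 770CU minus 475CU, was -0.19, and 1 feature was lowest at 770CU. The lowest of the 42 was listed at 0 FPKM at 200CU and the highest had 962 FPKM at 475CU. In 24 the highest stage was 475CU and in 18 it was 770CU. Of the 41 recovered, 20 were called by limma.

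The 32 features that were higher at 475CU after having been lower at 200CU were by definition lower at 200CU than at 0CU and 475CU. Only the 770CU value was free, and 0 of them were lowest at that stage. Their median FPKM was 9.65 at 0CU, then 3.86 at 200CU, 9.54 at 475CU and 19.6 at 770CU. Single features did not all follow that last rise, as their median difference, 770CU minus 475CU, was -0.43. The highest stage was 475CU in 15, 770CU in 11 and 0CU in 6. At 475CU 21 of them were within 0.5 of their 0CU value, and the median difference between 475CU and 0CU was 0.18. Fewer of them were called than among the continued rises, with 14 of 31, and the calls of the 2 sets were not compared by a test.

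In this group PRUPE_6G138700 was the largest called rise. Its libraries held 5.91 and 5.71 FPKM at 475CU, against 0.926 and 1.58 FPKM at 200CU. At 0CU they held 3.51 and 2.87 FPKM, and at 770CU 20.0 and 17.7 FPKM. No library of 200CU reached the level of any library of the other stages, and the 770CU libraries were the highest. The stage value at 475CU was 4.64 times that at 200CU, with a log2 difference of 1.61 in the limma fit (standard error 0.15, adjusted p 0.00735). Without library b of 475CU the p for 475CU against 200CU was 0.0643. The feature just before it in identifier order was also among the 106 higher members.

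Only 6 of the 63 lower features continued a fall. Their median FPKM was 28.9 at 0CU, then 16.8 at 200CU, 6.9 at 475CU and 3.56 at 770CU. By definition these 6 were higher at 0CU than at 200CU and 475CU. At 770CU 0 of them were highest and 4 reached their lowest value. The log2 difference between 475CU and 0CU lay between -2.1 and -1.56, and 3 were called at 475CU against 200CU.

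PRUPE_1G409800 was the largest called fall of this kind. Its libraries held 9.32 and 10.1 FPKM at 475CU, against 25.1 and 18.4 FPKM at 200CU. At 0CU they held 29.3 and 33.3 FPKM, and at 770CU 5.13 and 5.86 FPKM. No library overlapped with one of another stage, and the level was lower at each later stage. The log2 difference was -1.07 in the limma fit (standard error 0.15, adjusted p 0.0166). The call was lost with only the 200CU and 475CU libraries in the fit, where the adjusted p was 0.0572, and without library a or b of 475CU, where it was 0.0799 and 0.117.

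The 27 features that were lower at 475CU with no earlier difference stood at higher medians than the new rises at 0CU, 200CU and 475CU, and at a lower one at 770CU. Their median FPKM was 25.1 at 0CU, then 30.1 at 200CU, 9.37 at 475CU and 4.71 at 770CU. In 22 the highest stage was 200CU and in 24 the lowest was 770CU. The fit called 14 of the 27.

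The 30 features that were lower at 475CU after having been higher at 200CU were by definition higher at 200CU than at 0CU and 475CU. Their median FPKM was 23.6 at 0CU, then 44.1 at 200CU, 16.4 at 475CU and 5.87 at 770CU. At the free stage, 770CU, 0 of these 30 were highest and 26 were lowest. At 475CU 18 were within 0.5 of their 0CU value. The fit called 23 of the 30 at 475CU against 200CU.

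Of these, PRUPE_7G217400 was the largest called fall. Its libraries held 4.53 and 3.84 FPKM at 475CU, against 10.8 and 18.2 FPKM at 200CU. At 0CU they held 8.0 and 8.62 FPKM, and at 770CU 1.91 and 2.15 FPKM. The 200CU libraries stood above the other stages and the 770CU libraries below them, with library b of 200CU well above library a. The log2 difference was -1.54 in the limma fit (standard error 0.21, adjusted p 0.0158), and its stage value at 475CU was 0.289 times that at 200CU. With only the 200CU and 475CU libraries in the fit the adjusted p was 0.0601, without library a of 475CU 0.0632 and without library b of 475CU 0.128.

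**Figure D3:**
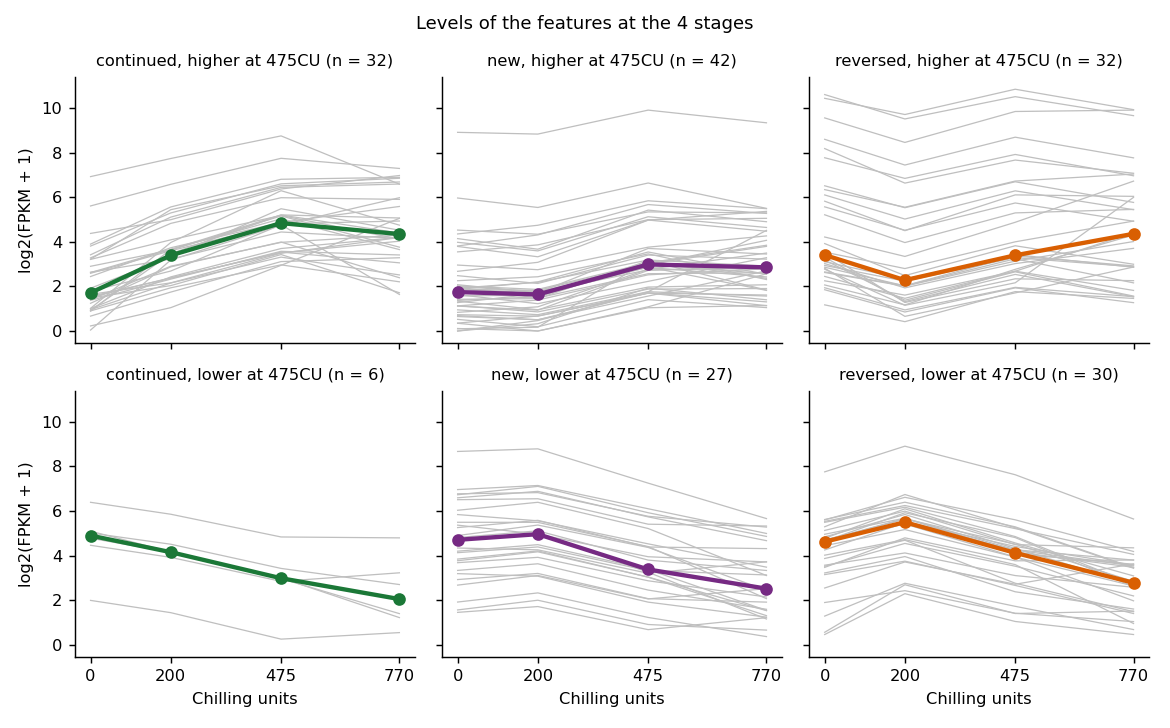
Each grey line is 1 feature and each coloured line the median of its panel, with chilling units on the x axis and log2(FPKM + 1) on the y axis. The upper panels hold the features higher at 475CU (32 continued, 42 new, 32 reversed) and the lower panels those lower at 475CU (6, 27 and 30). The reversed panels show the dip or peak at 200CU by which they were chosen.

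**Figure D4:**
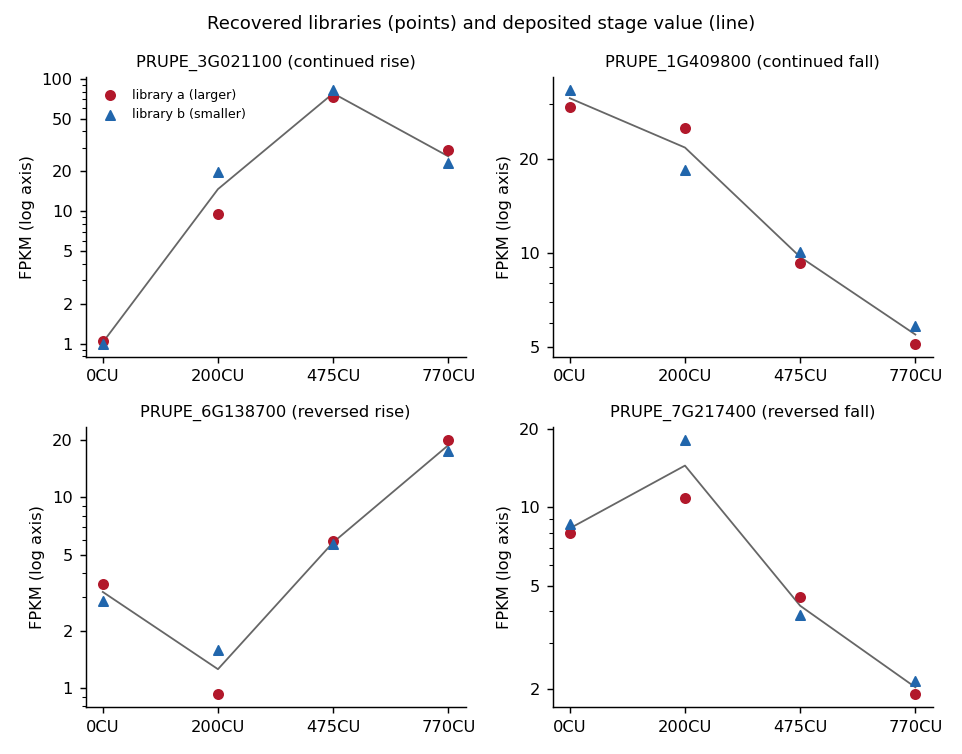
FPKM on a log axis at the 4 stages for 1 called feature of each kind, with library a as circles, library b as triangles and the deposited stage value as a line. PRUPE_3G021100 is highest at 475CU, PRUPE_6G138700 lowest at 200CU and PRUPE_7G217400 highest at 200CU, while PRUPE_1G409800 is lower at each later stage.

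The table holds 3 kinds of identifier. PRUPE identifiers belong to annotated genes, and what XLOC and ENSRNA features are is known here only from their identifiers. Of 17140 compared PRUPE features 81 were higher and 60 lower at 475CU by at least 1, or 0.473% and 0.35%. Of 518 XLOC features 18 were higher (3.47%) and 0 lower. Limma called 20 XLOC features higher and 4 lower among 508 tested. The 18 XLOC members were short, with a median length of 341 bases, and had a median of 7.37 FPKM at 475CU and 2.29 FPKM at 200CU. Their levels lay between 1.13 and 34 FPKM at 475CU and between 0 and 11.1 FPKM at 200CU. The libraries of the 2 stages did not overlap in any of the 18, beside 164 of the 166 recovered members and 53.6% of all features. Limma called 11 of the 18, beside 104 of the 166 members and 3.23% of all features. The 18 were chosen on these same values, so both counts follow in part from that choice. Of all XLOC features tested limma called 4.72%. By course, 3 of the 18 had continued a rise, 12 were new and 3 reversed a fall.

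Of 316 ENSRNA features 7 were higher and 3 lower by at least 1, and the 7 higher ones had each been lower at 200CU than at 0CU. These 10 features had lengths of 90 to 215 bases, and 1 of them was called, beside 1.95% of the 307 ENSRNA features tested. The called one was among the 3 lower features, and the 10 were chosen on these same values. Some identifiers end in a strand, plus or minus, and 19 members did, 10 PRUPE and 9 XLOC. The 19 were among the 106 higher members and 0 among the 63 lower, of 249 such features compared. Whether reads were counted by strand is not stated, so a feature and its partner on the other strand may share reads.

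The members were spread over the 8 pseudomolecules, the assembled chromosomes whose number stands in a PRUPE identifier. The share that differed by at least 1 lay between 0.596% on pseudomolecule 2 and 1.09% on pseudomolecule 1. On pseudomolecule 1 more members were lower (24) than higher (18), and on pseudomolecule 7 13 were higher and 4 lower. In identifier order, which follows the pseudomolecule, some members stood side by side. Of 140 members with a position, 26 (18.6%) had a member of the same direction as their neighbour, while members made up 0.818% of the 17107 positioned features compared. They formed 10 runs, 5 higher and 5 lower, of which 6 were pairs and the longest had 4 members. One run held both strands of 1 identifier. Whether neighbours share sequence, and so reads, was not tested.

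The study names 6 regulators of chromatin as markers of dormancy, which may have been chosen on these samples. At 475CU 3 of them were higher and 3 lower than at 200CU, by 0.35 at the most and -0.28 at the least. Limma called 0 of the 6 and 3.23% of all features, and so few calls among all features leave little to read from 0 of 6. In all, 3849 of 17655 features had an unadjusted p below 0.05. The later difference minus the earlier was tested as a contrast of its own and called for 1701 of all features (9.63%). Rescaling to the same total moved the difference by more than 1.5 times or turned its sign in each of the 6, to 0.22 for CMT3-like, 0.09 for JMJ24-like, -0.07 for HDA19-like, -0.42 for MBD8-like, -0.31 for ATXR7-like and -0.21 for SUVR2-like, and limma called 0 of them on that scale either.

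CMT3-like (PRUPE_6G011600), named after a plant-specific DNA methyltransferase that maintains methylation outside CG sites, had 9.36 and 8.47 FPKM at 475CU, against 6.55 and 7.06 FPKM at 200CU. The libraries did not overlap, and the difference was 0.35 with an adjusted limma p of 0.322. HDA19-like (PRUPE_8G183700), named after a histone deacetylase of Arabidopsis, had 57.4 and 61.1 FPKM at 475CU, against 59.9 and 52.7 FPKM at 200CU. Its libraries overlapped, and the difference of 0.07 had an adjusted p of 0.677, its direction being the opposite after rescaling to the same total. It had been higher at 200CU than at 0CU by 0.74 (adjusted p of 0.00205), and the later difference minus the earlier had an adjusted p of 0.0408. JMJ24-like (PRUPE_6G322900), named after a jumonji-domain protein, had 22.9 and 22.0 FPKM at 475CU, against 20.0 and 18.2 FPKM at 200CU. The libraries did not overlap, and the difference was 0.23 with an adjusted p of 0.148, after a fall of 0.38 between 200CU and 0CU (adjusted p of 0.0119). The contrast of its later with its earlier difference had an adjusted p of 0.0329.

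The other 3 regulators had lower values at 475CU. MBD8-like (PRUPE_8G062800), named after a protein with a methyl-CpG-binding domain, had 27.8 and 31.1 FPKM at 475CU, against 33.4 and 38.3 FPKM at 200CU, a difference of -0.28 with an adjusted p of 0.22. ATXR7-like (PRUPE_2G042400), named after a histone H3 methyltransferase, had 11.4 and 11.5 FPKM at 475CU, against 12.2 and 13.8 FPKM at 200CU, a difference of -0.17 with an adjusted p of 0.304. The 475CU libraries of both were below those of 200CU. SUVR2-like (PRUPE_8G216300), named after a SET-domain protein of transcriptional silencing, had 18.1 and 18.8 FPKM at 475CU, against 20.5 and 18.3 FPKM at 200CU. Its libraries overlapped, and the difference of -0.07 had an adjusted p of 0.66.

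The study used the ubiquitin gene UBQ (PRUPE_4G204900) to normalise real-time PCR of fruit mesocarp, not of buds. In the buds it had 66.9 and 72.5 FPKM at 475CU, against 35.7 and 49.5 FPKM at 200CU. The libraries did not overlap. The stage value was 1.64 times as high at 475CU, a difference of 0.70 that was larger in size than that of 97% of features, with an adjusted limma p of 0.0994. At 0CU its libraries held 99.1 and 70.7 FPKM and at 770CU 90.0 and 73.8 FPKM, so 200CU was the lowest stage. For its fall at 200CU against 0CU limma gave an adjusted p of 0.0132, and for the later minus the earlier difference 0.028. PpFLESHY (PRUPE_6G159200), a transcription factor studied in the fruit mesocarp, lay below the filter, with 0.540 and 0.155 FPKM at 475CU, against 0.294 and 0.169 FPKM at 200CU. These values stand for 19 and 5 fragments at 475CU and for 12 and 6 fragments at 200CU, too few to show a difference at this depth.

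**Figure D5:**
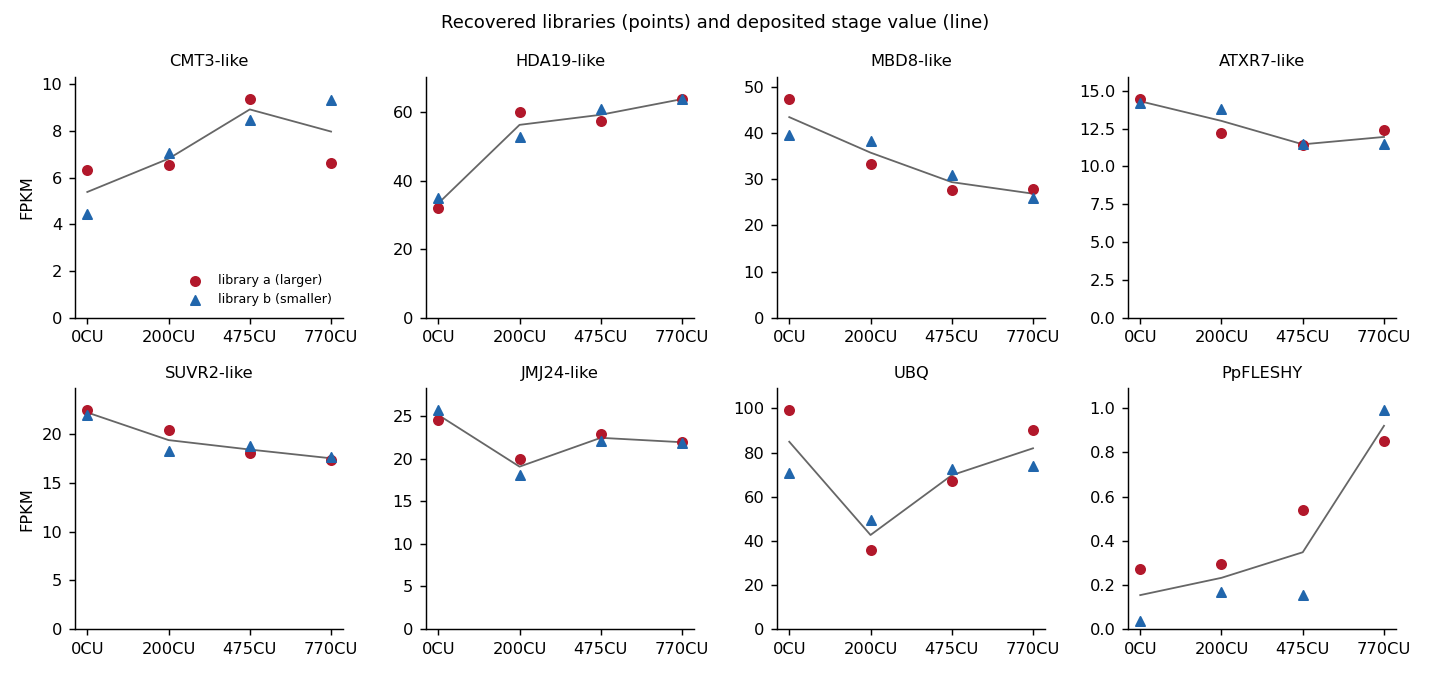
FPKM at the 4 stages for the 6 chromatin regulators, UBQ and PpFLESHY, with library a as circles, library b as triangles and the deposited stage value as a line, each panel starting at 0. UBQ is lowest at 200CU, with 35.7 and 49.5 FPKM, and the 6 regulators show smaller differences between 475CU and 200CU.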

How the data were processed

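RNA of 8 flower bud libraries, 2 per stage, was extracted with an RNeasy kit, depleted of ribosomal RNA and sequenced as paired-end reads of 150 nt. The submitters' processing notes name Trimmomatic 0.39, HISAT2 and featureCounts, and the genome build, annotation and FPKM step are not given in the sources used here. The authors deposited FPKM for 22285 features as 1 column per stage, normalised to length and library size. No column was left unused, and 0 identifiers matched the 26412 genes of the RefSeq table, so no gene names, positions or sequences are given.

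Differences were taken on log2(FPKM + 1), which understates changes of low features, and described without a test. Each stage value was written as the mean of 2 libraries with whole fragment numbers and 1 length per feature. Rebuilt values departed from the deposited ones by at most 5.0e-10 of their size, and 320 features were too high for the search. The method was tested on simulated data. Single libraries were tested with limma 3.58.1 (trend, R 4.3.3) on log2(FPKM + 1), with Benjamini-Hochberg adjustment at 0.05, 8 libraries in 1 fit. The labels do not say whether libraries of a stage came from separate trees, so p-values measure the spread between these libraries. Python 3.11.15 was used for the rest.

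The members and lists were chosen with earlier results of these data known. Named features are the genes named by the study and, among recovered PRUPE features with a call and a mean of at least 5 FPKM, the largest rise and fall that continued and that reversed the earlier difference. Alternatives covered the pseudocount, filter, scaling, limits, test, and each library left out. For the counts of differences and courses, leaving out libraries was added after seeing the data. ChIP-Seq and real-time PCR data were not analysed here.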

Additional observations from a re-analysis of the deposited data

How the results depend on the processing

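The 169 differences (106 higher, 63 lower at 475CU, with 38 continued, 62 reversed, 69 new) became 347 (225, 122, with 87, 129, 131) at a pseudocount of 0.1 and 64 (37, 27, with 15, 29, 20) at 5. A limit of 0.5 gave 1368 (759, 609, with 202, 409, 757). Rescaling to the same total gave 128 lower and 114 reversed, and without ENSRNA features in that total 54.6% of differences were higher, against 62.7% as deposited. Median ratio factors gave 168 (106, 62, with 38, 61, 69) and quantile normalization 166 (103, 63, with 39, 59, 68). A mean of at least 5 FPKM left 43 new. An earlier difference of 0.25 left 27 new, and one of 1 gave 19 continued, 28 reversed and 122 new. With 200CU library b for the later difference and a for the earlier, 90 continued and 135 were new. Leaving out 1 library of 200CU or 475CU gave 162 to 298 differences, 110 to 166 higher and 51 to 132 lower. Leaving out 1 library of those stages or of 0CU gave 36 to 46 continued, 63 to 152 reversed and 55 to 110 new. The 570 limma calls (346 higher, 224 lower) became 1232 (230, 1002) after rescaling to the same total, 448 of them shared, then 148 (88, 60) with only the 200CU and 475CU libraries and 857 (452, 405) with voom. Leaving out 1 library gave 1 to 558 calls, 1 to 329 higher and 0 to 229 lower. With library b of 475CU left out, 2351 features had an unadjusted p below 0.05. The cause of these moves was not tested. No fit reversed the direction of a limma call for the 4 features named by the rule. These were picked as the largest called differences and their 475CU and 200CU libraries did not overlap, so a reversal was hardly possible. No paired analysis was possible because neither the columns nor the recovered libraries carry replicate numbers. With 2 libraries per stage, 1 collection day each and 19 members under 50 fragments in all 4 libraries, small or low differences could not be resolved.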

Other observations

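Most differences that limma called were new at this step, meaning an earlier difference under 0.5. That also held for most compared features. Over all of them the 200CU minus 0CU difference had a median size of 0.22, with 5% below -0.58 and 5% above 0.69. The split of the calls is therefore only a description. Of the 346 features that limma called higher at 475CU, 203 had no earlier difference of 0.5, 73 continued one and 70 reversed one. Of the 224 called lower, 142 were new, 8 continued and 74 reversed. The called continued rises had a median difference of 0.87 and the called new rises one of 0.60. Called features were also found next to each other, since 64 of 539 positioned calls (11.9%) had a neighbour in identifier order called in the same direction, while calls made up 3.15% of the positioned features. These formed 28 runs, 18 higher and 10 lower, of at most 5 features.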
